A study of Mus musculus with 7 samples.

Results

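Transcripts of 6 genes of natriuretic peptide and cyclic GMP (cGMP) signalling were followed in mouse skin with and without tuftelin 1, the product of Tuft1, which the study links to desmosomes. The genes are the receptor genes Npr1, Npr2 and Npr3, the ligand gene Nppc, the kinase gene Prkg1 and the phosphodiesterase gene Pde5a, 6 of the 56691 genes in the deposited table, chosen by symbol. The set was proposed with the knockout and wild-type levels in view, because Npr3 had stood out in them. Its difference between the genotypes is therefore given as a description, without a test. The knockout group was healthy-looking skin of 3 mice lacking Tuft1 (numbered 2, 3 and 4). The control group was skin of 4 wild-type mice (numbered 5, 6, 7 and 8), and each mouse gave 1 library. The allele, strain, sex, age and body site are not given in the sources used here. All libraries were made from powdered frozen tissue with the QuantSeq kit. It counts tags from the 3' ends of polyadenylated RNA, so counts do not grow with transcript length and were not divided by it. Whether the 3' ends of different genes were counted equally well was not checked. Of 2 skeletal muscle genes, for example, Tnnc2 had 14 counts over the 7 libraries and Tnni2 had 143187. Orders and shares of different genes below are therefore those of counts, and 0 counts need not mean absence.

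Natriuretic peptides are small hormones that signal through cGMP. The receptors encoded by Npr1 and Npr2 carry a guanylyl cyclase inside the cell: Npr1 answers mainly to atrial and B-type natriuretic peptide, Npr2 to C-type natriuretic peptide, the product of Nppc. The receptor encoded by Npr3 has no cyclase. It takes up the peptides and removes them, hence its name of clearance receptor, and it can couple to inhibitory G proteins. cGMP activates the kinase encoded by Prkg1, which relaxes smooth muscle, and is broken down by phosphodiesterases such as that encoded by Pde5a. In fat cells, natriuretic peptides stimulate the breakdown of stored triglyceride, and the clearance receptor limits that action.

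Libraries held 7009237 to 9256459 counts, and all 6 genes had enough counts to be tested. Levels are given as CPM, counts relative to the library size as scaled with TMM factors. A count of 0 allows a level of up to 0.323 to 0.395 CPM, depending on the library, taking 3 counts as the limit for counting error only. Tuft1, the targeted gene, had 17.2 to 29.1 CPM in the knockout libraries and 55.6 to 114 CPM in the controls, without overlap. The tissue label fitted the keratinocyte genes, since Krt5 was at 4372 ± 1009 CPM (SD, n = 3) without Tuft1 and 3816 ± 506 CPM (SD, n = 4) in control skin. The p-values below measure the spread between these mice, part of which may be technical.

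Npr3 was lower in knockout skin, at a mean of 23.9% of the wild-type level, and the other 5 genes overlapped between the genotypes. Npr3 (ENSMUSG00000022206.8) maps to chromosome 15, 11839982 to 11907373, minus strand (mm39, as are all positions here). Knockout mice 2, 3 and 4 held 35.3, 36.1 and 30.6 CPM. The control mice 5, 6, 7 and 8 held 139.9, 153, 158 and 118 CPM. The highest knockout mouse lay far below the lowest wild-type mouse. The means were 34.0 ± 2.94 CPM (SD, n = 3) and 142 ± 18.1 CPM (SD, n = 4), and the fitted log2 fold change, knockout over wild type, was -2.06 (SE 0.28). Npr3 was the 1 of 6 members called by edgeR at an adjusted p below 0.05, in the lower direction, beside 0.00776% of the 12888 genes tested. Its groups also did not overlap in that direction, as in 3.45% of the genes tested. These values chose the gene, so nothing is read from either count. Npr3 was no longer called by edgeR when any of the 7 mice was left out, while its log2 fold change stayed between -2.14 and -1.997. An antisense gene, Gm5144, shares exon sequence with Npr3 and held 28 counts over the 7 libraries, beside 5723 for Npr3.

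**Figure D1:**
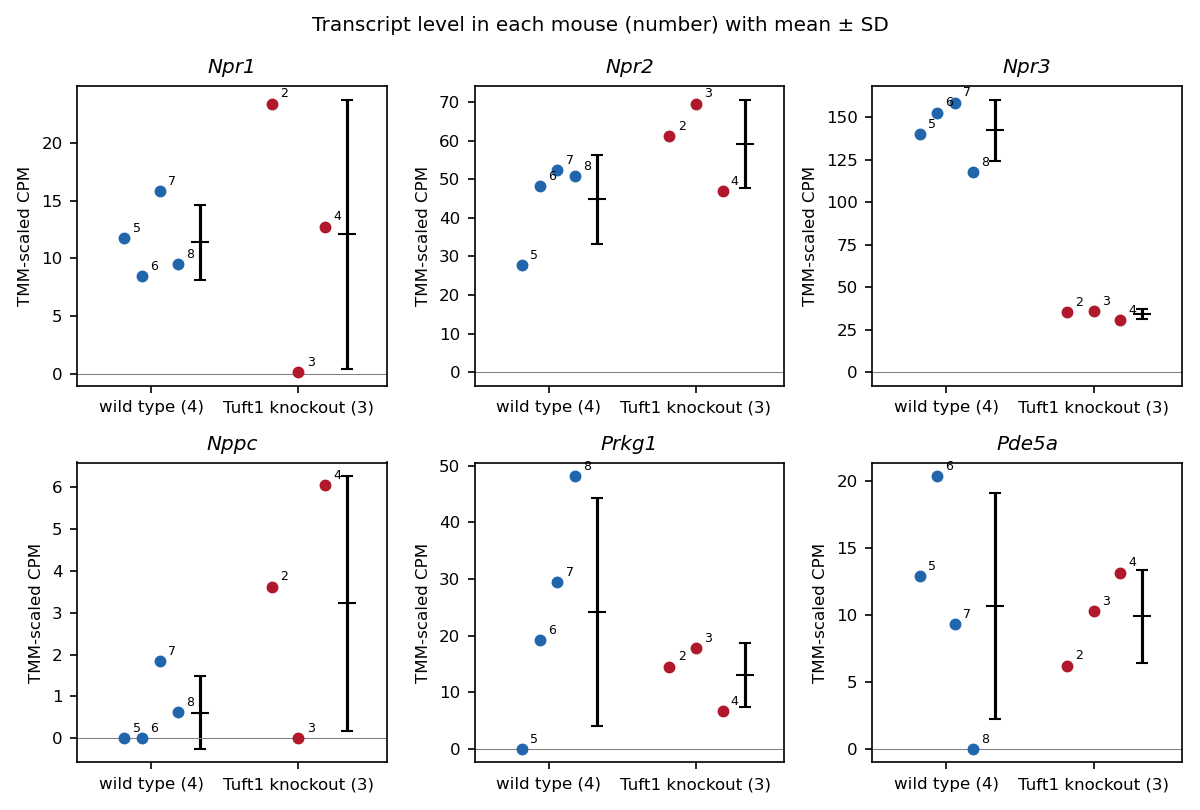
TMM-scaled CPM of the 6 genes (y axes, linear, each with its own range) in 4 wild-type (blue) and 3 Tuft1 knockout (red) mice. Points are mice, labelled with their numbers, and black bars are the mean ± SD of each group. Npr3 lies at 30.6 to 36.1 CPM in knockout and 118 to 158 CPM in wild-type skin, and the other 5 genes overlap.

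Mice of 1 genotype were close to each other in Npr3. The SD was 12.7% of the mean in wild-type and 8.65% in knockout skin, where counting independent reads alone would give 2.86% and 6.02%. Among the 2023 genes within 2-fold of the wild-type mean of Npr3, the median of this relative spread over wild-type mice was 24.7%, and 228 genes (11.3%) had a smaller one than Npr3. Among the 4779 genes within 2-fold of its knockout mean, the median over knockout mice was 43.5%, and 144 genes (3.01%) had a smaller one. A small spread favours a call, so this too belongs to what chose Npr3.

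The levels of the cyclase receptor genes Npr1 and Npr2 overlapped between the genotypes. Npr2 (ENSMUSG00000028469.16, chromosome 4, 43631935 to 43651244, plus strand) had a level of 61.1, 69.6 and 47.0 CPM in knockout mice 2, 3 and 4. Its level was 27.8, 48.2, 52.4 and 50.7 CPM in control mice 5, 6, 7 and 8. Knockout mice 2 and 3 were above all wild-type mice, and knockout mouse 4 lay inside their range. The means were 59.2 ± 11.4 CPM (SD, n = 3) and 44.8 ± 11.5 CPM (SD, n = 4), with a log2 fold change of 0.40 (SE 0.38). This value stayed between 0.23 and 0.54 under every alternative run.

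Npr1 (ENSMUSG00000027931.13, chromosome 3, 90357898 to 90373173, minus strand) had a level of 23.4, 0.112 and 12.8 CPM in knockout mice 2, 3 and 4. Its level was 11.7, 8.44, 15.8 and 9.53 CPM in control mice 5, 6, 7 and 8. The 3 knockout mice spanned more than the wild-type range on both sides, since mouse 3 had a single count of Npr1 and mouse 2 had 181. The means were nearly the same, 12.1 ± 11.7 CPM (SD, n = 3) and 11.4 ± 3.27 CPM (SD, n = 4). The log2 fold change of 0.09 (SE 1.37) became -1.74 in limma-voom and -0.83 without knockout mouse 2, so no direction is given.

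Within each library, the counts of the 3 receptors can be set against each other without any scaling between libraries. Npr3 gave 29.5% of the 926 receptor counts in knockout mouse 2 (exact Clopper-Pearson 95% interval 26.6% to 32.5%), 34.1% of 944 in mouse 3 (31.1% to 37.2%) and 33.9% of 687 in mouse 4 (30.4% to 37.6%). In wild-type skin it gave 78.0% of 1666 in mouse 5 (75.9% to 79.9%), 72.9% of 1858 in mouse 6 (70.8% to 74.9%), 69.9% of 1847 in mouse 7 (67.7% to 72.0%) and 66.1% of 1437 in mouse 8 (63.6% to 68.6%). The clearance receptor was thus the most counted of the 3 in every wild-type library, and Npr2 was in every knockout library. The intervals cover only the counting error of independent reads. They may be too narrow, since several reads may come from 1 molecule.

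There were 0.578, 0.519 and 0.653 Npr3 counts per Npr2 count in knockout mice 2, 3 and 4, and 5.03, 3.17, 3.02 and 2.32 in wild-type mice 5, 6, 7 and 8. Over the genotypes, the Npr3 share was 32.5% ± 2.62 (SD, n = 3) and 71.7% ± 5.01 (SD, n = 4). The 3 receptors summed to 105 ± 14.7 CPM without Tuft1 and 198 ± 23.8 CPM in control skin. Npr1 and Npr2 without Npr3 summed to 71.3 ± 12.5 CPM and 56.2 ± 12.1 CPM, so the lower sum lay in Npr3. These shares and ratios use the Npr3 counts that chose the gene and carry no test.

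**Figure D2:**
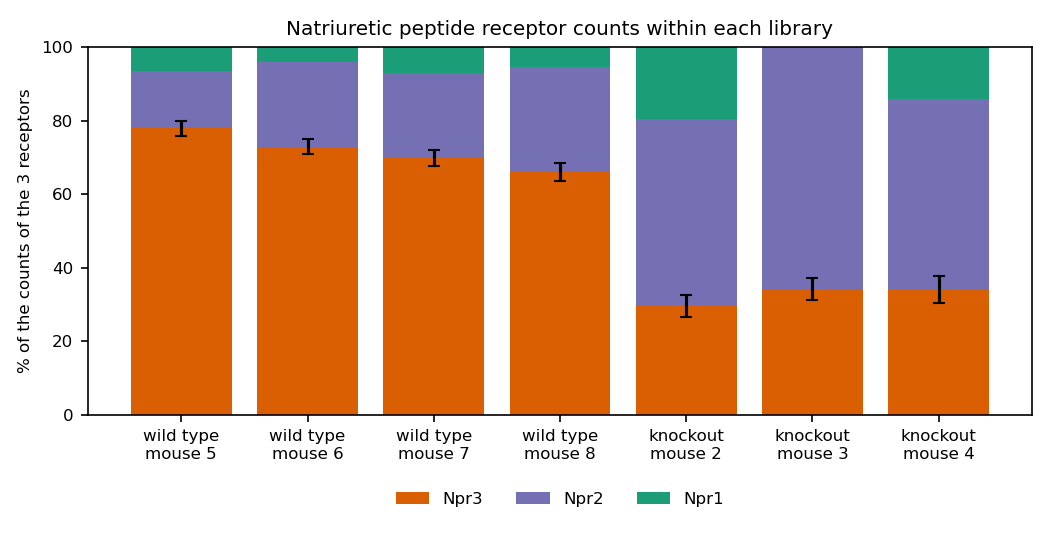
Share of Npr3 (orange), Npr2 (purple) and Npr1 (green) in the summed counts of the 3 receptor genes (y axis, percent) in each of 4 wild-type and 3 knockout libraries. Black bars are exact 95% intervals of the Npr3 share, for the counting error of independent reads only. The share runs from 66.1% to 78.0% in wild-type and from 29.5% to 34.1% in knockout libraries.

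Nppc, the gene of C-type natriuretic peptide (ENSMUSG00000026241.6, chromosome 1, 86594013 to 86598293, minus strand), was near the limit of detection. It had 28, 0 and 46 counts in knockout mice 2, 3 and 4, which are 3.62, 0 and 6.05 CPM. In wild-type mice 5, 6, 7 and 8 it had 0, 0, 15 and 5 counts, which are 0, 0, 1.84 and 0.619 CPM. Knockout mice 2 and 4 were above the wild-type mice and knockout mouse 3 was at 0, as were wild-type mice 5 and 6. At 2.36 on the log2 scale (SE 2.77), the difference was smaller than its error, and it was 1.53 without knockout mouse 4.

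The kinase and the phosphodiesterase varied widely between wild-type mice. Prkg1 (ENSMUSG00000052920.17, chromosome 19, 30541889 to 31742433, minus strand) had a level of 14.5, 17.8 and 6.71 CPM in knockout mice 2, 3 and 4. Its level was 0, 19.1, 29.5 and 48.1 CPM in control mice 5, 6, 7 and 8. Wild-type mouse 5 had no Prkg1 count and wild-type mouse 8 had 389, and the 3 knockout mice lay between them. The log2 fold change of -0.89 (SE 1.29) ran from -1.31 without wild-type mouse 5 to -0.32 without wild-type mouse 8, and was 1.23 in limma-voom.

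Pde5a (ENSMUSG00000053965.11, chromosome 3, 122522596 to 122653023, plus strand) had a level of 6.21, 10.3 and 13.2 CPM in knockout mice 2, 3 and 4. Its level was 12.9, 20.4, 9.33 and 0 CPM in control mice 5, 6, 7 and 8. Wild-type mouse 8, the highest in Prkg1, had no Pde5a count. The means were 9.89 ± 3.49 CPM (SD, n = 3) and 10.7 ± 8.46 CPM (SD, n = 4). The fitted log2 fold change of -0.11 (SE 1.57) became 1.35 in limma-voom. Neither gene is given a direction.

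In both genes the spread between wild-type mice was far beyond counting error. It was 83.1% of the mean for Prkg1 and 79.4% for Pde5a, where counting alone would give 7.08% and 10.3%. In all, 3 of the 6 members had 0 counts in some library, as did 4608 of the 12888 genes tested (35.8%). The exons of Npr1, Npr2 and Pde5a each overlap an antisense gene that had 0 counts.

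In wild-type skin, the order of the mean levels was Npr3 (142 CPM), Npr2 (44.8), Prkg1 (24.2), Npr1 (11.4), Pde5a (10.7) and Nppc (0.615). Npr3 stood clear of Npr2 in every mouse, while Npr2 and Prkg1 overlapped, as did Prkg1, Npr1 and Pde5a. In knockout skin, the order was Npr2 (59.2 CPM), Npr3 (34.0), Prkg1 (13.005), Npr1 (12.1), Pde5a (9.89) and Nppc (3.22). There Npr2 stood clear of Npr3 and Npr3 of the rest, while Prkg1, Npr1 and Pde5a overlapped again.

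Of 54 other genes of the pathway, 23 had enough counts to be tested, 15 had counts below the filter and 16 had 0 counts in all 7 libraries. None of the 23 was called in either direction by edgeR's quasi-likelihood test with Benjamini-Hochberg adjustment, beside 0.0233% of all genes. At an unadjusted p under 0.05 there were 2 lower genes, Rgs2 and Ide, and 0 higher, beside 4.31% of all genes tested in either direction and 2.59% lower. The DESeq2 Wald test called 1 of the 23, Rgs2, beside 0.954% of all genes, and limma-voom called 0, beside 0.171%. The log2 fold change was below 0 in 17 of the 23 (73.9%) and in 50.5% of all genes tested, with medians of -0.28 and -0.01. The groups did not overlap in 2 pathway genes, Rgs2 and Pde3b, both lower, beside 3.45% of the genes tested.

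Rgs2 encodes a regulator of G protein signalling that the cGMP-dependent kinase can phosphorylate, and is also an immediate early gene. Knockout mice 2, 3 and 4 held 128, 78.4 and 80.1 CPM. The control mice 5, 6, 7 and 8 held 432, 233, 266 and 141 CPM. Wild-type mouse 8 was the nearest to the knockouts. On the log2 scale Rgs2 differed by -1.49 (SE 0.36), with an adjusted p of 0.489 in edgeR. Rgs2 was called by the DESeq2 Wald test (adjusted p = 0.00130) and by edgeR without a filter on low counts (adjusted p = 2.74e-04). Over all alternatives the adjusted p ran from 2.74e-04 to 1.00.

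Phosphodiesterases other than Pde5a included Pde3b, a form known from fat cells that hydrolyses cAMP and is inhibited by cGMP. Knockout mice 2, 3 and 4 held 15.01, 6.38 and 0 CPM of Pde3b. The control mice 5, 6, 7 and 8 held 37.7, 42.7, 15.3 and 22.5 CPM. Knockout mouse 2 and wild-type mouse 7 nearly met. On the log2 scale Pde3b differed by -2.05 (SE 1.23), with an adjusted p of 1.00 in edgeR. The value was -3.20 without knockout mouse 2, -1.47 without knockout mouse 4 and -3.89 in limma-voom. Of the 6 tested phosphodiesterase genes 5 were below 0. Pde6d, which encodes a subunit that binds prenylated proteins and is no enzyme itself, was at 14.9 ± 6.50 CPM without Tuft1 and 26.3 ± 8.66 CPM in control skin. Pde1c and Pde2a had 0 counts in every library.

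Among ligands and their processing, the peptide genes themselves had almost no counts. Nppb had 0 counts in all 7 libraries, and Nppa, the gene of atrial natriuretic peptide, had 56 counts in wild-type mouse 8 and 0 in the other 6. Corin, the protease that activates that peptide, had 0 counts, and Ostn, which encodes a peptide that binds the clearance receptor, had 1 count in all. Furin was at 103 ± 13.9 CPM without Tuft1 and 104 ± 16.5 CPM in control skin. Ide, which encodes insulin-degrading enzyme, a protease that also cleaves natriuretic peptides, had means of 89.3 ± 14.5 CPM and 151 ± 57.9 CPM, with overlap between the groups. It differed by -0.76 on the log2 scale (SE 0.31), with an adjusted p of 1.00 in edgeR. Wild-type mouse 5 held 235 CPM of Ide. Without that mouse the log2 difference of Ide was -0.47 (SE 0.28), with an unadjusted p of 0.13 in edgeR. Mme, the gene of neprilysin, another such protease, was at 11.2 ± 12.03 CPM and 17.8 ± 12.8 CPM, and its log2 difference of -0.67 became -2.04 without knockout mouse 3.

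Apart from Nos1, the route from nitric oxide to cGMP was thinly counted. Nos1 was the 1 tested nitric oxide synthase, at 68.0 ± 11.7 CPM without Tuft1 and 84.2 ± 17.2 CPM in control skin. Gucy1a1 and Gucy1b1, the subunits of the nitric oxide-sensitive cyclase, each had at least 1 library at 0, and their log2 fold changes of 0.58 (SE 1.67) and 0.25 (SE 2.22) were within their errors. Both depended on the tool and on single mice. Gucy1a1 was at 2.45 without wild-type mouse 5 and 3.04 in limma-voom. Gucy1b1 was at -9.10 without knockout mouse 4 and -2.75 in limma-voom. Knockout mice 2 and 3 had 0 counts of Gucy1b1, so the value of -9.10 is not a measured size. No other membrane cyclase and no cGMP-gated channel had enough counts to be tested.

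Downstream genes ranged from evenly to thinly counted. Kcnma1, which encodes a potassium channel opened by the kinase, was counted 53, 0 and 277 times without Tuft1 (mice 2, 3 and 4) and 0, 118, 0 and 4 times in the controls (mice 5, 6, 7 and 8). Relative to its mean, the SD of Rgs4, another regulator of G protein signalling, was 131% in knockout and 52.3% in wild-type skin, and that of Vasp, a kinase substrate that binds actin, was 39.6% and 62.9%. Ppp1r12a, which encodes the targeting subunit of myosin phosphatase, a kinase substrate, was at 220.0 ± 28.2 CPM without Tuft1 and 266 ± 12.98 CPM in control skin (log2 fold change -0.28, SE 0.21, edgeR adjusted p = 1.00). The inhibitory G protein genes Gnai2 and Gnai3 were at 364 ± 57.8 CPM and 83.8 ± 32.3 CPM in knockout and at 453 ± 128 CPM and 126 ± 33.5 CPM in wild-type skin. The cGMP exporter gene Abcc5 was at 129 ± 20.02 CPM without Tuft1 and 95.1 ± 23.2 CPM in the controls, at a log2 fold change of 0.44 (SE 0.28). Abcc4, its relative, had 26.4 ± 6.51 CPM without Tuft1 and 25.9 ± 11.2 CPM in the controls.

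**Figure D3:**
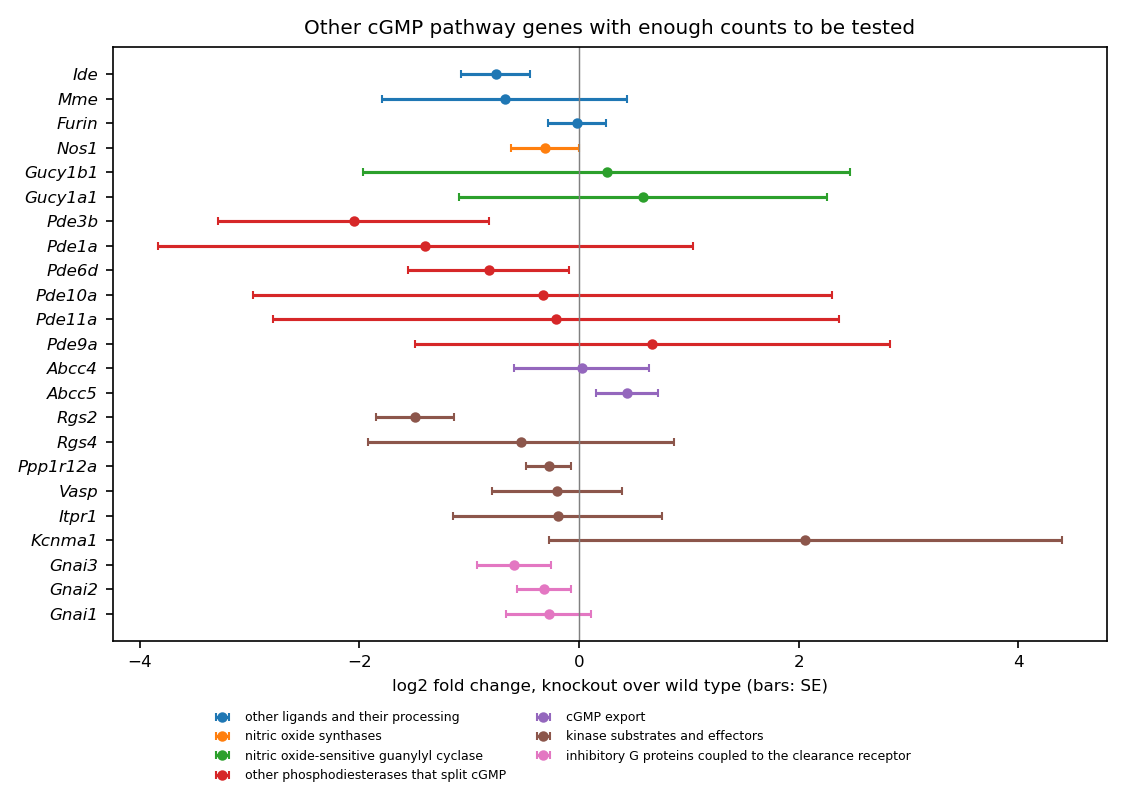
Log2 fold change, knockout over wild type (x axis), of the 23 tested pathway genes that are not members, coloured by role. Points are edgeR estimates from 3 knockout and 4 wild-type libraries and bars are standard errors. Of the 23 points 17 lie below 0, and bars are widest for genes with libraries at 0.

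The genes whose pattern over the 7 libraries was most like that of Npr3 were fat cell genes for the nearest pair. Likeness was the root mean square difference between log2 CPM profiles, each centred on its own mean, over 8045 other tested genes with an average log2 CPM of at least 3. It includes the genotype difference that chose Npr3. The nearest was Dgat2, an enzyme of triglyceride synthesis, at 0.37 log2 units, then Cd36, a fatty acid transporter, and Nt5c3b, a nucleotidase, both at 0.41. Knockout mice 2, 3 and 4 held 440.3, 401 and 298 CPM of Dgat2. The control mice 5, 6, 7 and 8 held 963, 1413, 869 and 1009 CPM. Cd36 was at 179.9, 127 and 164 CPM and at 385, 503, 363 and 409.8 CPM in the same order. For Npr2 the nearest were Nup88, Serp1 and Sbf1 at 0.12 to 0.16 log2 units, and for Prkg1 they were Tbl2, Ncoa2 and Gtf3c4 at 0.53 to 0.58. The last 3 had 0, 6 and 0 counts in wild-type mouse 5, where Prkg1 had 0. The average log2 CPM of the other members was below 3.

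Beside Npr3, genes of fat cells had lower levels without Tuft1. Of 18 tested fat cell markers 17 had a log2 fold change below 0, with a median of -1.29, and 14 did not overlap between the genotypes in that direction, beside 3.45% of all genes. None was called by edgeR over all genes, where 15 had an unadjusted p under 0.05, all lower, beside 2.59% of all genes. The DESeq2 Wald test called 12 of the 18 (0.954% of all genes) and limma-voom 9 (0.171%). This list, like the others, was chosen with earlier results of these data known, so these counts are a description only. The markers summed to 9357 to 11714 CPM in knockout and 17361 to 26019 CPM in wild-type mice. Car3 was the largest single contributor to every sum, giving 4114, 5795 and 5220 CPM for knockout mice 2, 3 and 4. For control mice 5, 6, 7 and 8 it gave 7376, 7890, 7165 and 10341 CPM. The log2 fold change of Car3, -0.70 (SE 0.21), was smaller in size than the median of the list. Sums without Car3 were not taken. Adipoq, the gene of adiponectin, was at 300.4 ± 53.8 CPM and 833 ± 194 CPM. In skin measured in bulk, fewer cells of a type and less RNA per cell cannot be told apart.

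Npr3 lay further below the wild type than most of these markers. The mean log2 CPM of the 18 markers was 7.68 ± 0.24 (SD, n = 3) without Tuft1 and 8.85 ± 0.28 (SD, n = 4) in the controls, a difference of -1.17. That of Npr3 was 5.09 ± 0.13 and 7.14 ± 0.19, a difference of -2.05. Set against the fat cell mean of its own library, Npr3 was at -2.66, -2.65 and -2.45 log2 units in knockout mice 2, 3 and 4. It was at -1.70, -1.86, -1.15 and -2.12 in wild-type mice 5, 6, 7 and 8. The genotypes did not overlap on this scale either, and their means differed by -0.88 log2 units, with wild-type mouse 8 the nearest to the knockout mice. Of the 18 markers, 1 had a lower log2 fold change than Npr3, the leptin gene Lep at -2.39 (SE 0.42). These comparisons use the Npr3 values that chose the gene and carry no test. The part of fat cell content in the Npr3 difference was not tested.

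**Figure D4:**
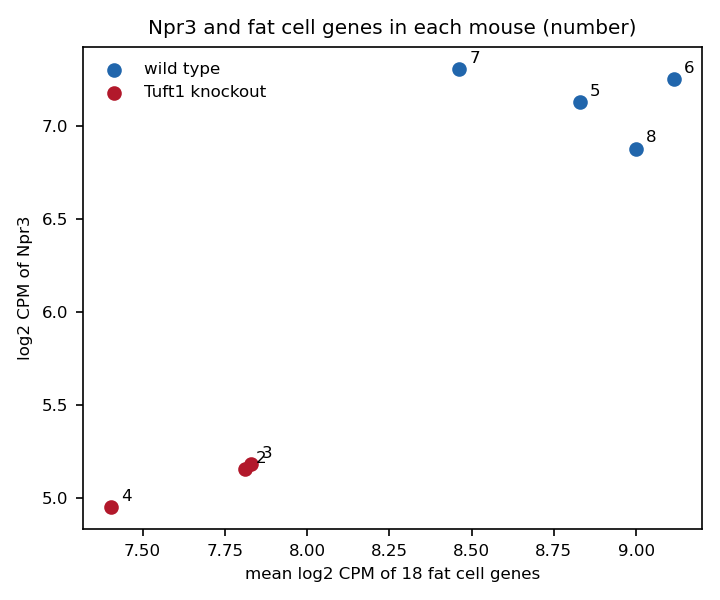
Log2 CPM of Npr3 (y axis) against the mean log2 CPM of 18 fat cell genes (x axis) in each of 4 wild-type (blue) and 3 knockout (red) mice, labelled with their numbers. The knockout mice lie at 4.95 to 5.18 on the y axis and the wild-type mice at 6.88 to 7.31, and the genotypes are apart on both axes.

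Other cell types that can carry these receptors were also followed. Endothelial markers had 10 of 12 tested members below 0 and a median log2 fold change of -0.70, the same with Tek and Cldn5 at their limit, with sums of 231 to 292 CPM in knockout and 246 to 429 CPM in wild-type mice. Tek and Cldn5 had 0 counts in the 3 knockout libraries. Smooth muscle and pericyte markers, which belong to the cells where Prkg1 and Pde5a are best known, had 9 of 12 below 0 and a median of -0.32. Their sums were 849.7 to 1052 CPM and 1059 to 1430 CPM. Des, the desmin gene, which skeletal muscle also expresses, gave 34.6% to 65.5% of these sums, and without it they overlapped, at 295 to 618 CPM in knockout and 515 to 804 CPM in wild-type mice. Fibroblast markers had 9 of 10 above 0 (median 0.46), skeletal muscle markers 11 of 11 (median 0.42) and keratinocyte markers 7 of 10 (median 0.14). The keratinocyte sums were 17571 to 18900 CPM in knockout and 18580 to 22265 CPM in wild-type mice. Of 8 dermal papilla markers 3 were tested, all above 0, and Corin, Alx4 and Rspo2 were at 0 counts in all 7 libraries. These markers summed to 14.3 to 99.2 CPM in knockout and 0 to 43.3 CPM in wild-type mice. Of the 58 tested genes of these 6 lists edgeR called 0, with 10 at an unadjusted p under 0.05, beside 4.31% of all genes. The DESeq2 Wald test called 2 of them (0.954% of all genes) and limma-voom 0 (0.171%). Their part in the levels of the receptors, Prkg1 and Pde5a was not tested.

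**Figure D5:**
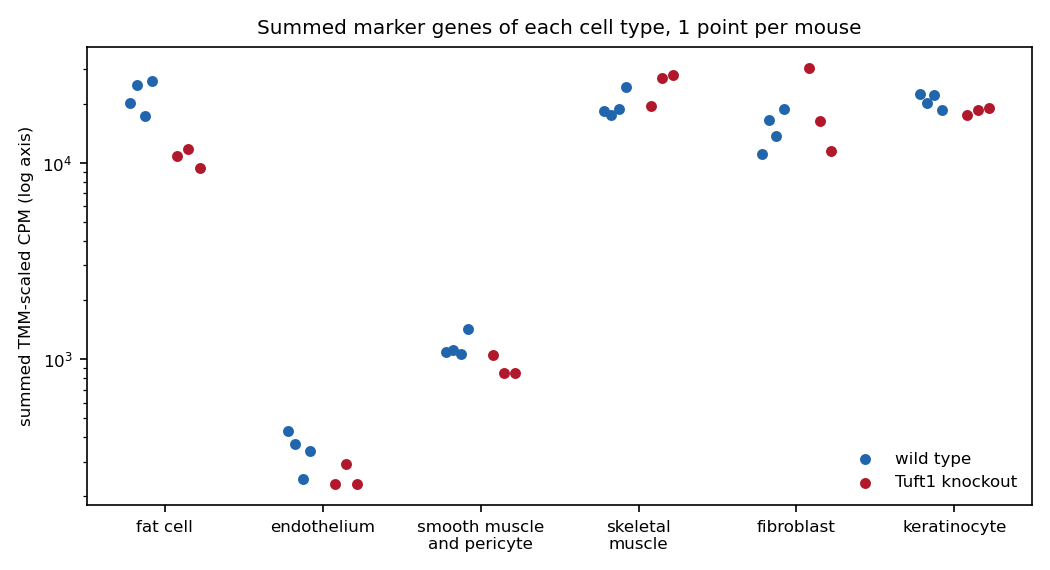
Summed TMM-scaled CPM of the markers of 6 cell types (y axis, log scale), with 1 point per mouse, for 4 wild-type (blue) and 3 knockout (red) mice. The fat cell sums are 9357 to 11714 CPM in knockout and 17361 to 26019 CPM in wild-type mice, while skeletal muscle, fibroblast, endothelial and keratinocyte sums overlap.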

How the data were processed

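The authors deposited raw counts, as whole numbers for each gene. Tools named in the submitters' processing notes are edgeR 3.36.0, Subread 2.0.3, featureCounts, GATK 4.2.4.0 and STAR, with mm39 as the build and no order or role. The sources used here do not say whether counting used strand or duplicates were removed. A deposited table of log2 values, filtered and normalized by the authors for 12954 genes, includes the 6 members. Its 90678 values could all be rebuilt from the counts as edgeR log2 CPM with a prior count of 2, within 1e-06, and it served only for this check.

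Counts of 3 knockout and 4 wild-type libraries were analysed in edgeR 4.0.16 under R 4.3.3. The default expression filter (minimum count 10) kept 12888 of 19128 genes with counts, libraries were scaled by TMM, and the genotypes were tested with the quasi-likelihood F test, with Benjamini-Hochberg adjustment over all genes tested and calls below 0.05. Standard errors were derived from the F statistic. Log2 CPM used a prior count of 2. Column headers matched the mouse numbers in the sample titles. The procedure was also run on simulated counts in which all genes shared a single dispersion. The outcome is not given here, and nothing is read from it.

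The members and lists were chosen with earlier results of these data known. Named genes were the members, Tuft1, up to 2 tested pathway genes per role with the smallest p, the 3 genes nearest in pattern to each member, and the 2 most abundant markers per list. Some genes under this rule are not printed, and other pathway and marker genes named were chosen after their values were seen. Alternatives were DESeq2 1.42.0 (size factors, and its Wald test), no TMM factors, TMM without fat and muscle genes, no filter, limma-voom (limma 3.58.1), each mouse left out, and a prior count of 0.5 for likeness. No check of GC content was made.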

Additional observations from a re-analysis of the deposited data

Results flagged for a closer look

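Among 29 sets of 4 wild-type values, 7 held 1 mouse apart from the rest, while chance alone gives about 1 in 20 (1.45 sets). The log2 CPM of Npr2 was 4.81 in control mouse 5 and 5.60 to 5.72 in the other controls, so its control mean is drawn down by 1 mouse. Without that mouse the log2 fold change of Npr2 was 0.23 (SE 0.37). The log2 CPM of Tuft1 was 5.80 in control mouse 7 and 6.70 to 6.84 in the rest. For Nos1 it was 5.89 in control mouse 6 and 6.49 to 6.62 in the rest. For Gucy1b1 it was -2.07 in control mouse 8, which had 0 counts of it, and 3.33 to 3.66 in the rest. Tbl2, Ncoa2 and Gtf3c4 had values of -2.07, -0.18 and -2.07 in control mouse 5 and of at least 5.24, 5.41 and 3.91 in the rest. These last 3 genes were named for their likeness to Prkg1, which had 0 counts in that mouse. They are not independent of each other, and that choice favoured their flags. Nothing is therefore read from 7 sets beside 1.45.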

How the results depend on the processing

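No paired analysis was made, because the sources used here give no pairing of mice between the genotypes. The Npr3 log2 fold change was -2.07 to -2.01 under other scalings, filters and tools and -2.14 to -1.997 with 1 mouse left out. The difference of Npr3 from fat cell genes (-0.88) is taken within a library, so scaling cannot test it. With 1 mouse left out, an alternative chosen after seeing the data, it ran from -1.02 (wild-type mouse 8) to -0.70 (wild-type mouse 7). In both directions together, 888 tested genes did not overlap, and 884 to 894 under other scalings. The lowest wild-type smooth muscle sum was 6.99 CPM above the highest knockout sum, and -103 CPM from it without Des, also chosen after seeing the data. Against 3 genes called over all genes, 76 were called without a filter, 123 by the DESeq2 Wald test and 22 by limma-voom, Npr3 among them in each. With 1 mouse left out 0 to 1 were called, and Npr3 was not: 0 without wild-type mouse 5, 6 or 7 and 1 otherwise. The values of Npr3 chose it, so nothing is read from its calls under any of these settings. The count of called pathway genes was 0 as reported and 1 (Rgs2) without a filter and by DESeq2. At an unadjusted p under 0.05 there were 2, 3 without a filter, 3 by DESeq2 and 1 to 3 with 1 mouse left out.

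Gucy1b1 reversed to a log2 fold change of -2.75 in limma-voom. With 1 mouse left out it ran from -9.10 (knockout mouse 4) to 0.83 (knockout mouse 3), and was -0.16 when control mouse 8 was dropped. The value of -9.10 is not a measured size, since the remaining knockout mice had 0 counts of Gucy1b1. Abcc4 ran from -0.16 (knockout mouse 3 or control mouse 8) through -0.06 (control mouse 6) to 0.35 (control mouse 7). The cause was not tested. Nppc was not tested without wild-type mouse 7. With a prior count of 0.5, the nearest 3 genes had 3 in common with those reported for Npr2 and 1 for Prkg1, and Smoc1 took the place of Nt5c3b for Npr3. Libraries with 0 counts limit what can be said of Nppc, Prkg1, Pde5a, Pde3b, Gucy1a1 and Gucy1b1.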

Other observations

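Prkg2, which encodes the other cGMP-dependent kinase, did not pass the filter on low counts. Its counts were 50, 1 and 93 in the knockouts (mice 2, 3 and 4) and 0, 3, 0 and 0 in the controls (mice 5, 6, 7 and 8). Knockout mice 2 and 4 had 22 and 86 counts of Pde1b and 63 and 53 of Pde3a, and the other 5 mice had 0 of both. These genes were chosen after their values were seen. Irag1, which encodes a kinase substrate of smooth muscle, had 233 counts in wild-type mouse 8, 19 in knockout mouse 2 and 0 in the other 5 mice.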
